A study of Homo sapiens with 18 samples.

Results

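The mRNAs of the nuclear-encoded subunits of the mitochondrial respiratory chain were followed in ARPE-19, a human cell line derived from the retinal pigment epithelium. Members were the genes whose symbol starts as those of complex I (NDUFA, NDUFB, NDUFC, NDUFS or NDUFV with a number), complex II (SDHA to SDHD), complex III (UQCR), complex IV (COX4 to COX8) or complex V (ATP5A to ATP5L), apart from 2 symbols with pseudogene endings. The rule took 86 of the 23411 gene symbols, 39 of complex I, 4 of complex II, 9 of complex III, 18 of complex IV and 16 of complex V. It is a rule on names, so it left out other subunits such as NDUFAB1, CYC1 and ATP5O, and it took COX4NB, the older name of EMC8, which codes for a subunit of the endoplasmic reticulum membrane complex and not of the respiratory chain. UQCRHL is a near-identical copy of UQCRH, so the split of reads between them (27477 and 37974 over all libraries) is uncertain. NDUFA4, counted here with complex I by its symbol, is now regarded as a subunit of complex IV.

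The respiratory chain sits in the inner mitochondrial membrane. Complexes I and II pass electrons from NADH and succinate to ubiquinone, complex III passes them to cytochrome c, complex IV reduces oxygen to water, and complex V, the ATP synthase, uses the proton gradient that complexes I, III and IV build up. Complexes I, III, IV and V combine subunits made in mitochondria with subunits coded in the nucleus, whose genes are known targets of nuclear respiratory factor 1 (NRF1, a protein unrelated to NRF2), of the ETS factor GABP and of YY1, helped by the PGC-1 coactivators. The retinal pigment epithelium is rich in mitochondria, which are both a source and a target of oxidants.

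mRNA was sequenced in 18 samples, 3 in each of 6 groups. Control cells had been transduced with a lentiviral Cas9 vector without a guide RNA, and NRF2 ΔC cells with the same kind of vector and a guide RNA against the final exon of NFE2L2, which codes for NRF2. Both edited alleles carry an early stop codon that removes the C-terminal part of NRF2, and all NRF2 ΔC samples come from 1 clone, so the edit and other traits of that clone cannot be told apart. Cells of each line were left untreated (water), or were treated with 0.2 mM H2O2 or with 1 mM of the ethyl ester of N-acetylcysteine (NACET), a cysteine donor that enters cells readily. The study design and the paper give 8 h of treatment after 40 h of culture, whereas the sample protocols give 2 h after 22 h, and serum is given as 10 % or 1 %. The sources used here do not say whether the 3 samples of a group were separate cultures, so p-values measure only the spread between these samples.

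The libraries held 16673306 to 25951154 reads assigned to genes. The targeted gene, NFE2L2, had between 102 and 152 CPM (the read count scaled to library size, with TMM normalization) over the 18 libraries, and its total count does not cover the edit in particular. NQO1, a known NRF2 target, had 170 to 335 CPM in untreated control cells and 11.3 to 15.6 CPM in untreated NRF2 ΔC cells. Of 14 markers of the retinal pigment epithelium 9 reached 1 CPM in the median library, whereas RPE65, RLBP1, BEST1, TYR and TTR did not, and 0 of 5 photoreceptor and 0 of 3 endothelial markers did. Of the immune markers, PTPRC and CD14 were at or near 0 and CD68 was not. Of 5 fibroblast or mesenchymal markers 4 reached 1 CPM in the median library, with VIM at 5850 CPM, and COL1A2 did not. In such bulk samples fewer cells with an mRNA and less of it per cell cannot be told apart.

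Promoter sequences are shown for 4 members that the results below turn on, as reference sequence from RefSeq on GRCh38.p14, from 250 bases before to 50 bases after a transcription start. NDUFV3 and SDHB rose with H2O2 in both cell lines, SDHA fell with NACET in both, and COX4I1 shares its promoter region with COX4NB (EMC8). Capitals mark matches, on either strand, to GCGCA and GCGC parted by 1 base of any kind (NRF1), CCGGAAG (ETS factors such as GABP), AAGATGGC (YY1) and TGACNNNGC (the core of the antioxidant response element, to which NRF2 binds).
NDUFV3, chr21:42893059-42893358, plus strand: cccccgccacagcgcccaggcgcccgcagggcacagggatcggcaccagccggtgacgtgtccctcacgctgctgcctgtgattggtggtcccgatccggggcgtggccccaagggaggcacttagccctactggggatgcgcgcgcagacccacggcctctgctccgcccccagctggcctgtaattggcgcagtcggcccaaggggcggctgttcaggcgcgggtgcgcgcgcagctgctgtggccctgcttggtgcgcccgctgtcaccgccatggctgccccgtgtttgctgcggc
SDHB, chr1:17053983-17054282, minus strand: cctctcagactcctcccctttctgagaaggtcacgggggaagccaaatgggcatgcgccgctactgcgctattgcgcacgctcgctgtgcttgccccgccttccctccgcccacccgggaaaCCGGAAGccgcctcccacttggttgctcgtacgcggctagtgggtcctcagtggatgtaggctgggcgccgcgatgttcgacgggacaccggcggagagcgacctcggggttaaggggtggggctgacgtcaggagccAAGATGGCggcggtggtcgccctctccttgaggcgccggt
SDHA, chr5:218070-218369, plus strand: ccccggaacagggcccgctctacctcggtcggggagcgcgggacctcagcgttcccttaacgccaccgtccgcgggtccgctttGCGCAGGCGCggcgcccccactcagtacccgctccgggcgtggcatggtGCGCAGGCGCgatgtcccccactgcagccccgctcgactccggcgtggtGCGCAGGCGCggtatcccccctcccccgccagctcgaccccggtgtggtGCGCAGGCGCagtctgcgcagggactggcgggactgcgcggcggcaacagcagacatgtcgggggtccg
COX4I1, chr16:85799445-85799744, plus strand: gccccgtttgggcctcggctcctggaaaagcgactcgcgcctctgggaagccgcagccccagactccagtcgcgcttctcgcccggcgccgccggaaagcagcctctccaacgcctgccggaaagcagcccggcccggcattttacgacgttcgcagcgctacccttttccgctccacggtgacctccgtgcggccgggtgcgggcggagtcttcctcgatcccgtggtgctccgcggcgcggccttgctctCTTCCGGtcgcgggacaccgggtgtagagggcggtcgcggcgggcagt
The SDHA window held 4 copies of the NRF1 letters, the SDHB window 1 ETS and 1 YY1 match, the COX4I1 window 1 ETS match on the minus strand, and the NDUFV3 window none of the 4. The EMC8 window, on the other strand of chromosome 16, shared 250 of its 300 bases with that of COX4I1 and held the same ETS match. Of the 67 members with a window, 22.4 % held the NRF1 letters, against 6.98 % of 27305 genes, 31.3 % the ETS letters against 12.2 %, 16.4 % the YY1 letters against 3.52 %, and 17.9 % the antioxidant response element core against 16.1 %. The 12 members with the last motif were ATP5I, NDUFA1, NDUFA2, NDUFA3, NDUFA5, NDUFA9, NDUFA13, NDUFS1, NDUFS4, NDUFS6, UQCR11 and UQCRC1. A match is a run of letters and not a shown binding site.

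Most members were well expressed, and the others had few or no reads. An average of over 10 CPM was reached by 76 of the 86 members, 37 of complex I, all 4 of complex II, all 9 of complex III, 12 of complex IV and 14 of complex V, and the other 10 stayed under 1 CPM. The members under 1 CPM were mostly tissue-restricted isoforms of complex IV. COX4I2, the lung and hypoxia isoform of subunit 4, had 1 read in all 18 libraries together, where COX4I1 had 97502. COX6A2, the heart and muscle isoform, had 0 reads, which allows up to 0.00782 CPM (counting error only), and its partner COX6A1 had 21080. COX7A1, another heart and muscle isoform, had 49 reads against 36196 for COX7A2. COX6B2, COX7B2 and COX8C, isoforms known mainly from testis, had 16, 7 and 5 reads. NDUFA4L2, a hypoxia-inducible relative of NDUFA4, had 14 reads against 26932, and at most 4 reads in any library. Neither H2O2 nor NACET brought any of these isoforms to 1 CPM. The 2 read-through symbols ATP5J2-PTCD1 and NDUFC2-KCTD14 had 1 and 3 reads, and ATP5L2 had 155. Exons of the read-through symbols overlap those of ATP5J2 and NDUFC2 on the same strand, and ambiguous reads were not counted. The levels of the read-through symbols, ATP5J2 and NDUFC2 are therefore uncertain.

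Where several isoforms were expressed, their order per kilobase of canonical transcript held in all 6 groups. The 3 genes for the c subunit of the ATP synthase rotor code for the same mature protein. Per kilobase of canonical transcript, ATP5G2 had 375 to 413 CPM in the means of the 6 groups, ATP5G1 134 to 146 CPM and ATP5G3 80.7 to 89.3 CPM. COX7A2 had 181 to 220 CPM per kilobase and COX7A2L 37.7 to 55.6 CPM per kilobase, and these ranges of group means did not overlap. Part of this order depends on the transcript lengths used. In mean CPM over the 18 libraries, not divided by length, ATP5G2 had 245, ATP5G3 215 and ATP5G1 90.4. By the same measure COX7A2L had 98.4 and COX7A2 94.3. COX7A2L is a relative of COX7A2 that joins complexes III and IV into supercomplexes.

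The summed level of the members moved little with treatment, apart from H2O2 in NRF2 ΔC cells. All members together had 7851 ± 842 CPM in untreated control cells (SD, n = 3 here and below), 7855 ± 598 CPM with H2O2 and 7593 ± 1143 CPM with NACET. In NRF2 ΔC cells the sums were 7692 ± 944 CPM untreated, 8671 ± 1085 CPM with H2O2 and 7694 ± 1079 CPM with NACET. The ranges of all 6 groups overlapped. Between samples of the same number (1, 2 and 3), H2O2-treated NRF2 ΔC cells were 9.3, 18.7 and 10.3 % above untreated ones. With H2O2 in control cells these changes were 5.1, -3.0 and -1.2 %. With NACET they were -6.0, -7.2 and 2.6 % in control and -4.5, 4.6 and -0.4 % in NRF2 ΔC cells. Complexes I and V held most of the sum, with 2342 ± 216 and 2729 ± 328 CPM in untreated control cells, and complex II the least, with 242 ± 16.2 CPM. The ratio of the highest to the lowest group mean was under 1.5 for 73 of the 76 expressed members, with a median of 1.21, and the median coefficient of variation within a group was 13.3 %. The 3 above 1.5 were ATP5D (1.61), COX4NB (1.57) and NDUFV3 (1.53).

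**Figure D1:**
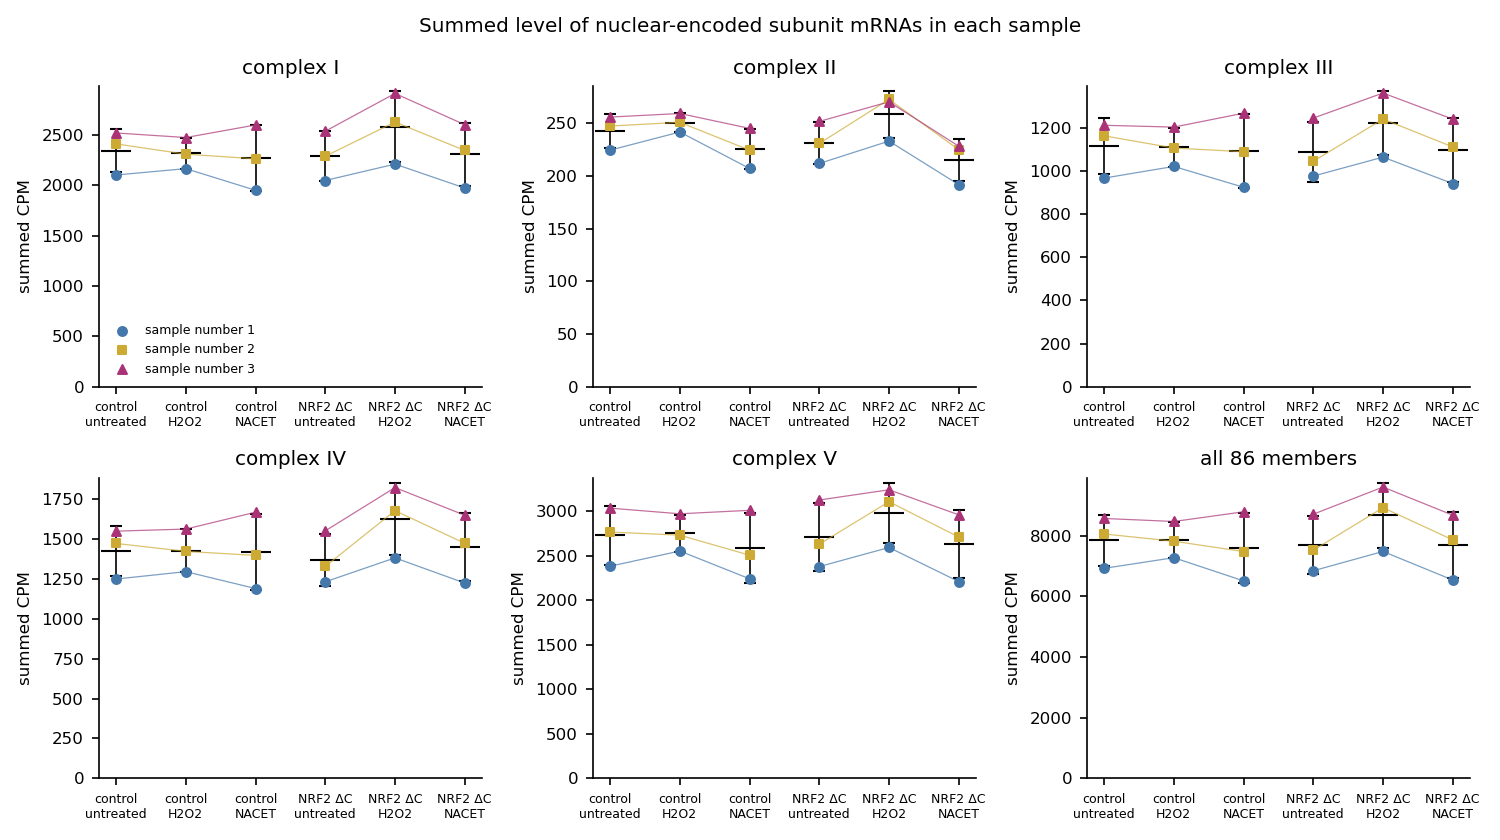
Summed CPM (y axis, linear from 0) of the members of complexes I to V and of all 86 members in each sample of the 6 groups (x axis). Points are samples, with colour and shape for the sample number and lines joining the same number within a cell line, and black marks give the mean ± SD of 3 samples. In the panel of all members, the sample numbered 1 was lowest and the sample numbered 3 highest in all 6 groups, and the H2O2-treated NRF2 ΔC cells had the highest mean, 8671 CPM.

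The members differed more between sample numbers than between treatments. In untreated control cells the members summed to 6924 CPM in sample 1, 8058 in sample 2 and 8570 in sample 3. In H2O2-treated NRF2 ΔC cells the same numbers gave 7481, 8925 and 9605 CPM. The sample numbered 1 was lowest and that numbered 3 highest in each of the 6 groups. Of 76 members, 70 (92.1 %) were higher in the sample numbered 3 than in that numbered 1 in all 6 groups and 0 were lower in all 6, against 25.95 % higher among all 13366 genes. The largest mean difference was that of ATP5D, a subunit of the central stalk of the ATP synthase (0.73 on the log2 scale), and those of NDUFS1 (-0.00) and SDHC (-0.07) were the smallest. Other short mRNAs moved likewise. The median difference was 0.35 for the members, 0.34 for 78 mitochondrial ribosomal proteins, 0.51 for 82 cytosolic ribosomal proteins, 0.28 for 726 other genes with a canonical transcript of up to 1000 bases and -0.25 for 3499 other genes with over 5000 bases. The expressed members are short, with a median of 830.5 bases against 3350 for all genes tested. The part of transcript length in this difference was not tested. What the number marks is not stated in the labels. Within a cell line, same-numbered samples deviated together from their group means (correlations of 0.471 to 0.876 over 11007 genes for each treatment against untreated). Over the 76 members alone these correlations were 0.277 to 0.763. The number was therefore taken to pair these samples, and comparisons within a cell line are given without and with the number as a block.

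**Figure D2:**
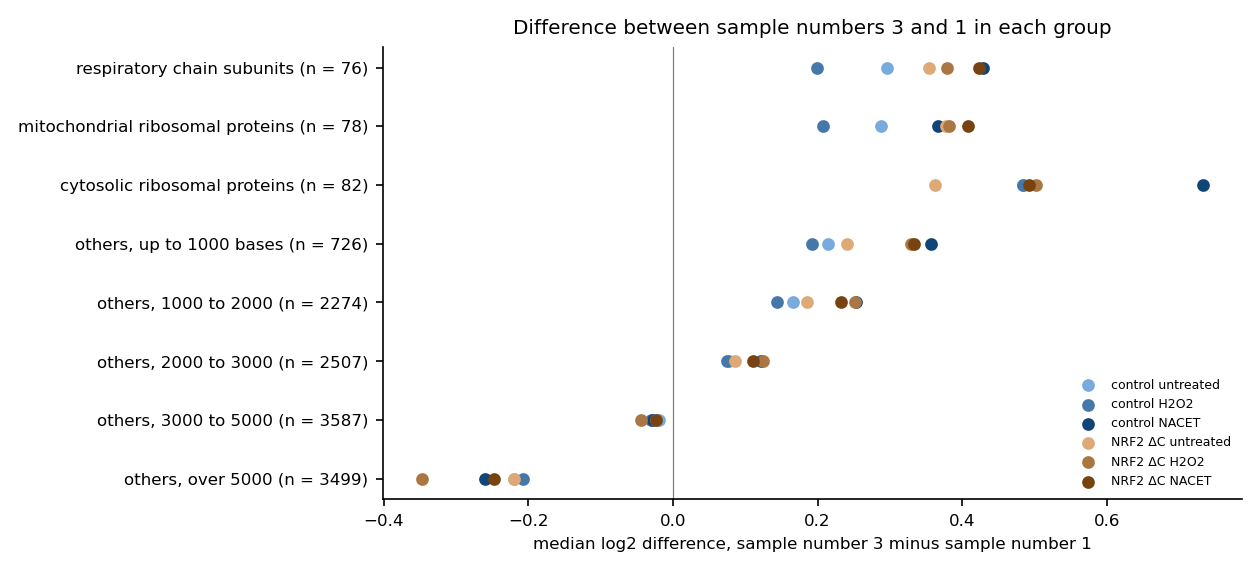
Median log2 difference in CPM (with 1 CPM added) between the sample numbered 3 and the sample numbered 1 (x axis), for the members, 2 sets of ribosomal protein genes and all other genes in classes of canonical transcript length in bases (y axis, with the number of genes). Each point is 1 of the 6 groups. All points of the members lie between 0.20 and 0.43, and the points of the other genes fall as transcripts get longer, to between -0.35 and -0.21 over 5000 bases.

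The first question was whether H2O2, an oxidant, changed these mRNAs in control cells. Without the block, 0 of 76 members passed an adjusted p of 0.05, although 13.2 % of all genes tested did (quasi-likelihood test of edgeR, p-values adjusted after Benjamini and Hochberg, as below). Of the members 4 had an unadjusted p under 0.05, and DESeq2 called 1, NDUFV3. The shares of all genes at an unadjusted p or by DESeq2 are not given, here or in later comparisons. These counts are therefore not read as results about the members. The median log2 fold change of the members was -0.01, that of all genes -0.00. With the block 10 members rose, where 24.1 % of all genes did, and 8 fell, where 24.6 % did. The changes were small, from 0.13 to 0.34 in size on the log2 scale, and the 95 % interval of each of the 76 members lay within 0.6 of 0. Members also moved less than other genes of over 10 CPM. The median size of the log2 fold change was 0.07 for members and 0.19 for 9732 other genes, and the block called 23.7 % of members and 55.8 % of those genes.

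NDUFV3, an accessory subunit of the flavoprotein part of complex I that binds NADH, rose most. It had 35.6, 36.4 and 42.9 CPM in the untreated control samples and 45.2, 49.1 and 50.9 CPM in those with H2O2. The groups did not overlap, and the log2 fold change was 0.34 (SE 0.06, adjusted p = 0.000309 with the block, 0.0625 without). COX7A2L went from 77.6, 90.7 and 89.9 CPM to 93.3, 109 and 113 CPM, also without overlap. Its log2 fold change was 0.29 (SE 0.05, adjusted p = 0.000190 with the block). COX4NB, which is no respiratory chain subunit, went from 25.4, 31.6 and 36.1 CPM to 37.4, 40.7 and 39.0 CPM, a log2 fold change of 0.34 (SE 0.08, adjusted p = 0.00200 with the block). COX4I1, its neighbour across the shared promoter region, had a log2 fold change of -0.10 (adjusted p = 0.0920 with the block). Exons of COX4NB overlap those of COX4I1 on the opposite strand. Strand was ignored and ambiguous reads were not counted, so the level of COX4NB is uncertain.

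Among the catalytic subunits, those that carry iron-sulfur clusters or flavin were not all called in the same direction with the block. SDHB, the iron-sulfur subunit of complex II, had 72.5, 90.6 and 91.3 CPM untreated and 88.9, 102 and 102 CPM with H2O2. It rose by 0.21 on the log2 scale (SE 0.05, adjusted p = 0.00407 with the block), with groups that overlapped although each H2O2 sample was above its same-numbered untreated sample. UQCRFS1, the Rieske iron-sulfur protein of complex III, rose likewise, from 51.4, 68.6 and 69.2 CPM to 68.5, 75.7 and 77.8 CPM (log2 fold change 0.24, SE 0.06, adjusted p = 0.00458 with the block), and its groups just overlapped. NDUFV1, which holds the flavin of complex I, fell by 0.15 and NDUFS7, with the cluster next to ubiquinone, fell by 0.17 on the log2 scale (adjusted p = 0.0187 and 0.0366 with the block). Neither fall was called in any blocked fit that left out 1 sample number. The rises of SDHB and UQCRFS1 were called in each of these fits.

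The other members called with the block in control cells came from complexes I to IV. The anchor SDHD, the accessory subunits NDUFA9 and NDUFB9, the core protein UQCRC2 and NDUFC2 rose, by 0.13 to 0.31 on the log2 scale. NDUFA3, NDUFA13, NDUFB8, UQCRC1 and COX6A1 fell by 0.13 to 0.20. Complex V had 0 members called in either direction, its catalytic subunits ATP5A1 and ATP5B at log2 fold changes of -0.06 and 0.10. Of the 18 calls, 6 held whichever sample number was left out (NDUFV3, COX7A2L, COX4NB, NDUFA9, SDHB and UQCRFS1), all of them rises. The block found 7 rises and 9 falls without number 1, 7 and 0 without number 2, and 8 and 1 without number 3, so 0 of the falls held each time, and 32.6 to 43.7 % of all genes were called in these fits.

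The same treatment of NRF2 ΔC cells was followed mostly by rises, which were again small. Without the block 1 of 77 members was called, NDUFV3, where 11.1 % of all genes were, 3 had an unadjusted p under 0.05, and DESeq2 called 2, NDUFV3 and COX7A2L. With the block 17 rose, where 21.9 % of all genes did, and 1 fell, where 24.7 % did, with sizes of 0.23 to 0.56 on the log2 scale. The median log2 fold change was 0.15 (0.14 with the block) for the members and -0.01 for all genes, and 66 of 77 members (85.7 %) had a positive value, against 49.3 % of all genes. By complex the median was 0.15 for I, 0.10 for II, 0.15 for III, 0.21 for IV and 0.11 for V, and all 12 tested members of complex IV and all 9 of complex III were above 0. The 95 % interval lay within 0.6 of 0 for 73 of 77 members with the block.

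NDUFV3 again had the largest value. It had 35.6, 38.3 and 43.3 CPM in untreated NRF2 ΔC samples and 49.96, 62.5 and 63.0 CPM with H2O2. The groups did not overlap, and the log2 fold change was 0.56 (SE 0.15, adjusted p = 0.0482 without the block; SE 0.11, adjusted p = 1.16e-05 with it). COX7A2L went from 83.5, 94.1 and 93.8 CPM to 114, 145 and 122 CPM (log2 fold change 0.46, SE 0.10, adjusted p = 6.79e-05 with the block). COX4NB went from 29.3, 35.1 and 38.7 CPM to 38.5, 53.6 and 53.9 CPM (log2 fold change 0.47, SE 0.11, adjusted p = 0.000250 with the block). NDUFV3 and COX7A2L separated the groups, whereas the lowest H2O2 value of COX4NB lay just under the highest untreated value.

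Members of each complex rose with the block. In complex I, NDUFB9 had a log2 fold change of 0.38 (SE 0.10), NDUFA9 0.31, NDUFS3 0.29, NDUFA11 0.29, NDUFS6 0.29 and NDUFA13 0.23. In complex II SDHB rose by 0.33 on the log2 scale (SE 0.10, adjusted p = 0.00425), from 69.0, 77.1 and 91.8 CPM to 88.7, 105 and 110.1 CPM. In complex III UQCRFS1 rose by 0.30 and UQCR11, a small accessory subunit, by 0.24. In complex IV, COX5A and COX5B, subunits on the matrix side of the enzyme, rose by 0.35 and 0.25, and COX7A2 by 0.26. In complex V the catalytic β subunit ATP5B rose by 0.27, from 649.6, 742 and 850.0 CPM to 789.6, 993 and 963 CPM, and ATP5D by 0.26. The α subunit ATP5A1, which pairs with ATP5B in the enzyme, had a log2 fold change of -0.05. Of the 18 calls, 5 held whichever sample number was left out (NDUFV3, COX7A2L, COX4NB, COX5A and NDUFB9), and without number 1 or number 2 the block found 8 rises and 0 falls, where 36.5 and 32.2 % of all genes were called in either direction.

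The H2O2 lists of the cell lines, which share no samples, overlapped in 7 members that rose with the block: NDUFV3, COX7A2L, COX4NB, NDUFA9, NDUFB9, SDHB and UQCRFS1. These are 70 % of the 10 that rose in control cells and 41.2 % of the 17 that rose in NRF2 ΔC cells. The same fits called 24.1 and 21.9 % of all genes as higher. The overlap over all genes is not given, so the 7 cannot be set against it.

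Other short mRNAs moved the same way as the members in NRF2 ΔC cells. With H2O2 in NRF2 ΔC cells, 739 other genes with transcripts of up to 1000 bases had a median log2 fold change of 0.14, and 65.5 % of them were above 0. The 3535 other genes with over 5000 bases had a median of -0.15. Cytosolic ribosomal proteins had a median of 0.34, mitochondrial ribosomal proteins 0.28, and the 37 assembly factors of the chain 0.18. In control cells with H2O2 these medians were -0.03 for the short and -0.00 for the long transcripts, 0.06 for cytosolic and 0.16 for mitochondrial ribosomal proteins and 0.14 for assembly factors. The part of transcript length in the shift of the members was not tested. The median of the members ranged from 0.06 to 0.26 over the alternatives tried.

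**Figure D3:**
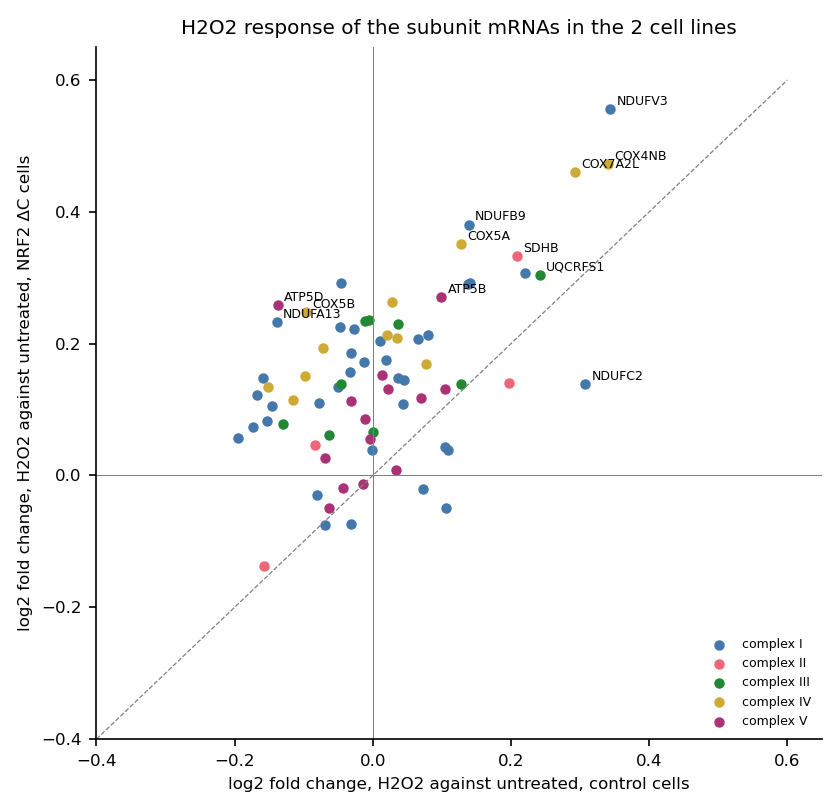
Log2 fold change of each member but 1 with H2O2 in control cells (x axis) and in NRF2 ΔC cells (y axis), both with the sample number as a block, coloured by complex, with the dashed line marking equal values. NDUFV3 lies farthest up in both directions, and most points lie above the dashed line.

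An interaction fit over 12 samples asked whether the H2O2 effect differed between the lines. Without a block 0 of 77 members were called, 0 had an unadjusted p under 0.05 and DESeq2 called 0, and 0.0214 % of all genes were called. The median difference of the log2 fold changes, NRF2 ΔC minus control, was 0.17 for members and 0.02 for all genes. Other genes with transcripts of up to 1000 bases had a median difference of 0.20 and those with over 5000 bases -0.12. The highest differences by complex were those of NDUFA13 (0.40), SDHA (0.15), UQCR11 (0.27), COX5B (0.37) and ATP5D (0.45). With the sample number as a block within each cell line, an alternative chosen after seeing the data, 2 members were called (NDUFA13 and COX5B), where 6.91 % of all genes were. NDUFA13, an accessory subunit of complex I also known as GRIM-19, had 102, 113 and 125 CPM in untreated and 96.2, 98.7 and 113 CPM in H2O2-treated control samples. In NRF2 ΔC samples it had 99.6, 118 and 115 CPM untreated and 110.5, 136 and 154 CPM with H2O2. Every same-numbered pair fell in control cells and rose in NRF2 ΔC cells, with a difference of 0.39 (SE 0.10, adjusted p = 0.0328). COX5B had 102, 108 and 114 CPM and then 91.3, 99.7 and 112 CPM in control cells, and 88.3, 95.4 and 106 CPM and then 98.2, 124 and 129 CPM in NRF2 ΔC cells, a difference of 0.36 (SE 0.10, adjusted p = 0.0381). NDUFV3 and COX7A2L, called in both lines, had differences of 0.23 and 0.19 that did not pass the test (adjusted p = 0.232 and 0.272). Exons of NDUFA13 overlap those of YJEFN3 on the same strand, and ambiguous reads were not counted.

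NACET, the thiol donor, was followed by few and small changes. In control cells 0 of 76 members were called without the block, 0 had an unadjusted p under 0.05 and DESeq2 called 0, where 3.67 % of all genes were called by edgeR. The median log2 fold change was -0.02 for members and -0.01 for all genes. With the block 1 member rose, where 20.1 % of all genes did, and 6 fell, where 20.6 % did, from 0.14 to 0.37 in size on the log2 scale. Of 76 members in NRF2 ΔC cells 0 were called without the block, 3 had an unadjusted p under 0.05 and DESeq2 called 0, where 1.43 % of all genes were called by edgeR. The median was 0.01 for members and -0.01 for all genes. With the block 1 rose (16 % of all genes) and 4 fell (18.1 %). The 95 % interval of the blocked fit lay within 0.6 of 0 for 76 of 76 members in control and 75 of 76 in NRF2 ΔC cells, the exception being NDUFA5.

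The member that rose with NACET in both lines was COX4NB, the one that is no chain subunit. It had 34.3, 37.9 and 47.4 CPM with NACET in control cells and 37.7, 49.7 and 52.9 CPM in NRF2 ΔC cells, with log2 fold changes of 0.37 (SE 0.07, adjusted p = 4.01e-06 with the block) and 0.42 (SE 0.08, adjusted p = 0.000583 with the block). The level of COX4NB is again uncertain, as its exons overlap those of COX4I1. Of the subunits proper, 0 rose with NACET.

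SDHA, the flavin-bearing catalytic subunit of complex II that is also an enzyme of the citric acid cycle, fell with NACET in both lines. It had 71.3, 73.2 and 76.0 CPM in untreated and 56.6, 65.7 and 69.6 CPM in NACET-treated control samples. The groups did not overlap, and the log2 fold change was -0.19 (SE 0.06, adjusted p = 0.00950 with the block). In NRF2 ΔC samples SDHA had 64.7, 73.1 and 81.4 CPM untreated and 53.2, 54.5 and 65.3 CPM with NACET. Each NACET sample was below its same-numbered untreated sample, although the highest lay above the lowest untreated one, and the log2 fold change was -0.36 (SE 0.07, adjusted p = 0.00137 with the block). Reads that align to several places were not counted, and SDHA has pseudogene copies, so its level is uncertain. Its partners in complex II were not called. SDHB had log2 fold changes of -0.04 and 0.07 in control and NRF2 ΔC cells, SDHC -0.11 and -0.17, and SDHD -0.01 and -0.09, and 0 of these passed the test with the block.

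ATP5A1 was the other member that fell in both lines with NACET. It had 444, 512 and 550.3 CPM untreated and 408, 437 and 507 CPM with NACET in control cells (log2 fold change -0.14, SE 0.06, adjusted p = 0.0475 with the block). The NRF2 ΔC samples went from 463, 497 and 593 CPM to 389, 480.1 and 498 CPM (log2 fold change -0.20, SE 0.07, adjusted p = 0.0277 with the block). NDUFA5, an accessory subunit of complex I, had the largest fall of all members, in NRF2 ΔC cells. It had 30.1, 37.5 and 33.3 CPM untreated and 21.2, 30.4 and 22.9 CPM with NACET, a log2 fold change of -0.47 (SE 0.09, adjusted p = 0.000532 with the block), although the groups just overlapped. In control cells it had 29.3, 31.2 and 30.4 CPM untreated and 29.2, 27.1 and 28.3 CPM with NACET, a change that was not called. The difference between the lines was -0.37 and did not pass the interaction test, in which 0 of 76 members were called without a block or with the block within each line. In that test 0 had an unadjusted p under 0.05 without a block, DESeq2 called 0, and 0.0643 % of all genes were called without a block. With the block within each line, 19 of 14002 genes were called with a higher and 107 with a lower effect in NRF2 ΔC cells. The core subunits NDUFS7 and UQCRC1 and the accessory subunit NDUFA8 fell in control cells by 0.25, 0.19 and 0.18 on the log2 scale, and NDUFS1, the largest subunit of complex I, fell by 0.21 in NRF2 ΔC cells. Of the calls with the block, COX4NB held in control cells and COX4NB, NDUFA5 and SDHA in NRF2 ΔC cells whichever sample number was left out. Without number 2, 4 of 76 members rose and 15 fell in NRF2 ΔC cells, where 40.6 % of all genes were called in either direction.

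**Figure D4:**
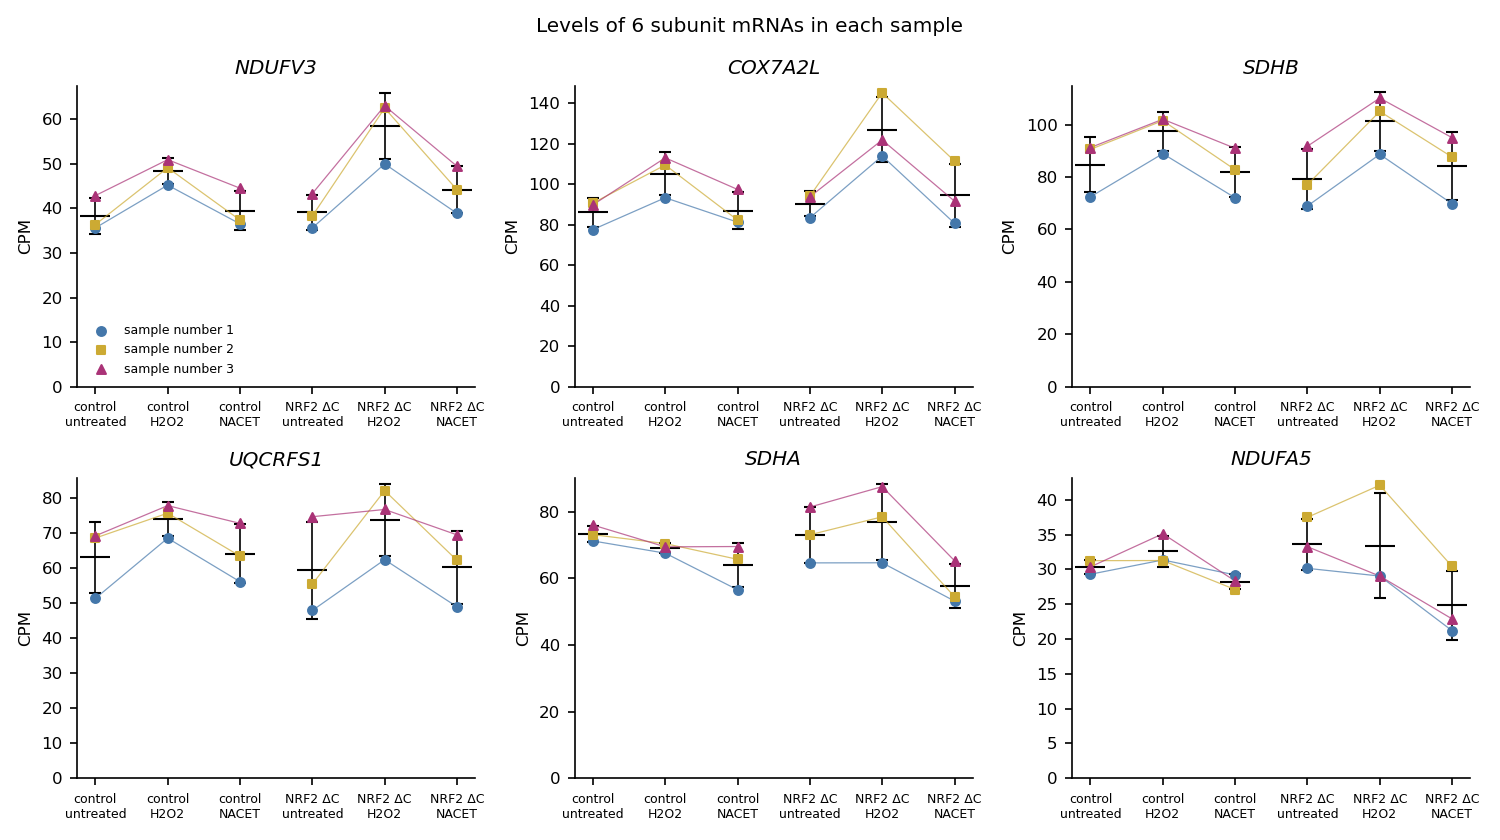
CPM (y axis, linear from 0) of 6 members in each sample of the 6 groups (x axis), with colour and shape for the sample number, lines joining the same number within a cell line, and black marks for the mean ± SD of 3 samples. The means of NDUFV3, COX7A2L, SDHB and UQCRFS1 are highest with H2O2 in both cell lines, and that of SDHA is lowest with NACET in both lines.

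H2O2 and NACET were also set against each other. In control cells 0 of 76 members were called without the block, 1 had an unadjusted p under 0.05 and DESeq2 called 0, where 5.88 % of all genes were called. With the block 12 were higher with H2O2 than with NACET (20.3 % of all genes) and 2 were lower (21.2 %). Of 77 members in NRF2 ΔC cells 0 were called without the block, 4 had an unadjusted p under 0.05 and DESeq2 called 0, where 10.1 % of all genes were called. With the block 27 were higher with H2O2 (23.7 %) and 0 were lower (26.4 %). The summed level of the members in NRF2 ΔC cells was 14.4, 13.5 and 10.7 % higher with H2O2 than with NACET in the pairs of samples 1, 2 and 3, and that of complex II 21.5, 21.2 and 18.5 % higher. These contrasts share the treated samples with those against untreated cells and are not independent of them. ATP5B had 740.0, 809.6 and 832 CPM with H2O2 and 592, 663 and 754 CPM with NACET in control cells, groups that overlapped (log2 difference 0.23, SE 0.05, adjusted p = 0.00234 with the block). With NRF2 ΔC it had 603, 727 and 779 CPM with NACET, all below its H2O2 values (log2 difference 0.36, SE 0.06, adjusted p = 3.73e-05 with the block). SDHA was 0.38 higher with H2O2 in NRF2 ΔC cells (SE 0.08, adjusted p = 0.000273 with the block), NDUFS3 0.38, NDUFA5 0.40 and COX7A2L 0.40. The count of higher members in NRF2 ΔC cells was 13 to 27 when 1 sample number was left out (37.4 to 50.5 % of all genes called in either direction), and 12 members were called each time. In control cells it was 2 to 13 (26.5 to 41.4 % of all genes), and 2 members, NDUFC2 and SDHB, were called each time.

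A further question was whether cells with truncated NRF2 carried other levels of these mRNAs. Across cell lines the samples numbered 1 and 3 deviated together (correlations of 0.596 to 0.781) but those numbered 2 did not (-0.26 to -0.04), so the numbers were not taken to pair the lines, and these comparisons are given without the block. In untreated cells 0 of 76 members were called, where 4.07 % of all genes were. Of the members 1 had an unadjusted p under 0.05, and DESeq2 called 0. The members' median log2 fold change (NRF2 ΔC over control) was -0.04, that of all genes 0.01, and 28 of 76 values were above 0. The lowest and highest values by complex were -0.34 (NDUFA1) and 0.32 (NDUFC2) in complex I, -0.19 (SDHC) and 0.04 (SDHD) in complex II, -0.14 (UQCR11) and 0.11 (UQCRC1) in complex III, -0.22 (COX7A2) and 0.15 (COX4NB) in complex IV, and -0.15 (ATP5E) and 0.23 (ATP5D) in complex V. NDUFA1, a small membrane subunit, had 74.9, 88.5 and 81.4 CPM in control and 63.4, 54.9 and 75.3 CPM in NRF2 ΔC cells, with a slight overlap. The 95 % interval lay within 0.6 of 0 for 71 of 76 members.

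With NACET the picture was alike, with 0 of 76 members called, where 5.42 % of all genes were, 2 with an unadjusted p under 0.05 and 0 called by DESeq2. The median was -0.03, that of all genes -0.00. The lowest and highest values were -0.43 (NDUFB1) and 0.30 (NDUFC2) in complex I, -0.25 (SDHC) and 0.00 (SDHB) in complex II, -0.15 (UQCRC2) and 0.17 (UQCRH) in complex III, -0.24 (COX6C) and 0.19 (COX4NB) in complex IV, and -0.22 (ATP5E) and 0.44 (ATP5D) in complex V. NDUFB1 had 32.1, 37.3 and 44.2 CPM in control and 24.1, 29.7 and 32.3 CPM in NRF2 ΔC cells, so the groups just overlapped.

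With H2O2 0 of 76 members were called as well, where 6.23 % of all genes were, with 5 at an unadjusted p under 0.05. The median was 0.09, that of all genes 0.01, and 61 of 76 values were above 0, while other genes with transcripts of up to 1000 bases had a median of 0.14 and those with over 5000 bases -0.16. The lowest values by complex were those of NDUFB1 (-0.25), SDHC (-0.17), UQCRC2 (-0.04), COX6C (-0.06) and ATP5G1 (-0.10), and the highest those of NDUFA11 (0.43), SDHA (0.14), UQCRC1 (0.33), COX4I1 (0.32) and ATP5D (0.67). ATP5D had 47.5, 53.5 and 66.8 CPM in control and 63.7, 99.7 and 107 CPM in NRF2 ΔC cells, and DESeq2 called it alone of the members (edgeR log2 fold change 0.67, SE 0.21, adjusted p = 0.0966). The sample numbered 1 of the H2O2-treated NRF2 ΔC cells decided this comparison. Without it 19 of 76 members were called, all higher in NRF2 ΔC cells, where 30.9 % of all genes were called in either direction, among them ATP5D (0.87), NDUFA11 (0.60), NDUFS7 (0.58) and NDUFS8 (0.52).

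**Figure D5:**
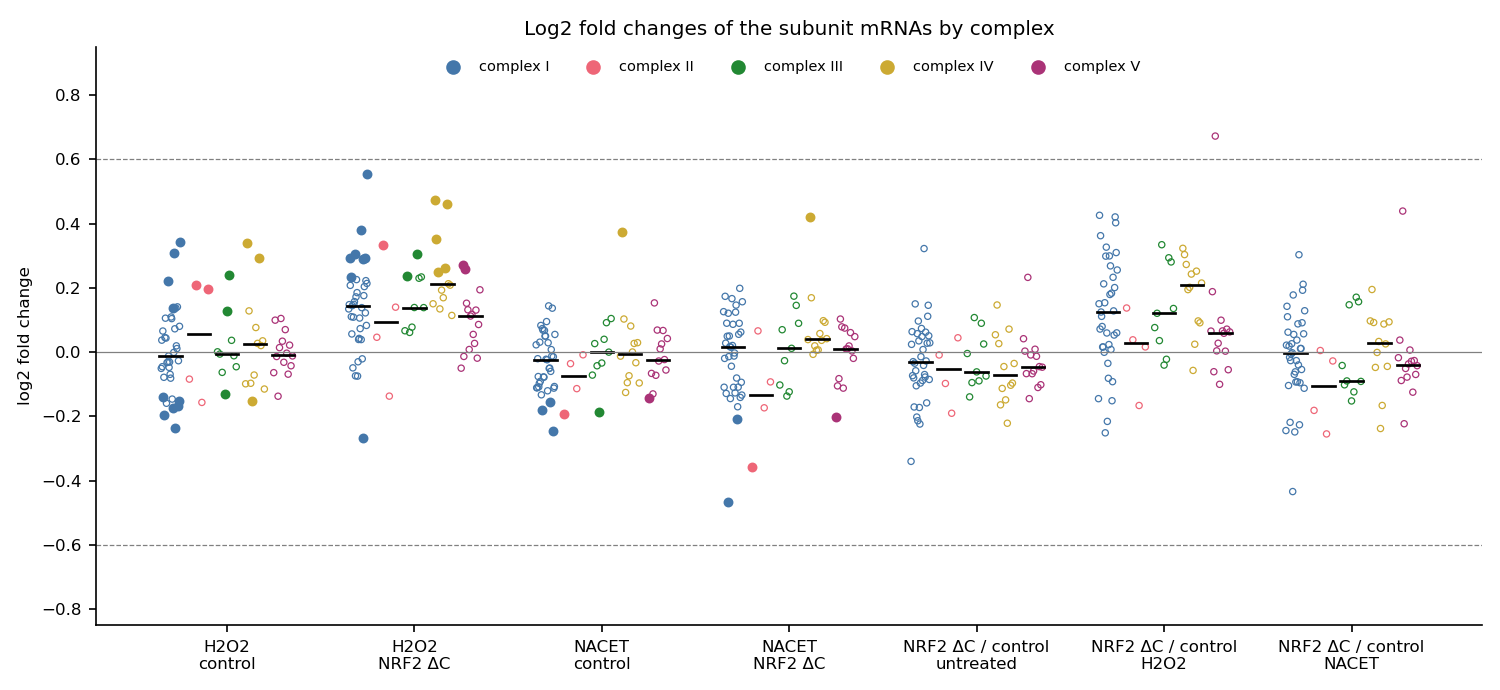
Log2 fold change (y axis) of each tested member in the 4 treatment comparisons, with the sample number as a block, and the 3 comparisons of NRF2 ΔC with control cells, without it (x axis). Points are members coloured by complex, filled where the adjusted p was under 0.05, short black bars are the medians of each complex, and dashed lines mark 0.6. Of all points 1, ATP5D between the lines with H2O2 at 0.67, lies beyond 0.6. Most medians lie near 0 apart from H2O2 in NRF2 ΔC cells and NRF2 ΔC against control cells with H2O2.

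Genes that act around the chain were described by the same counts. The 16 regulators of mitochondrial genes moved more than the subunits. With H2O2 in control cells 6 of 16 rose without the block, where 7.06 % of all genes did, with a median of 0.26 over the list. PPARGC1B, a PGC-1 coactivator, rose by 1.59 (SE 0.24, adjusted p = 0.00689), PPRC1, a related coactivator, by 0.60, TFAM, which packages mitochondrial DNA, by 0.53, GABPB1, a GABP subunit, by 0.52, LRPPRC by 0.49 and ESRRA by 0.48 on the log2 scale. PPARGC1A, the founding PGC-1 coactivator, went the other way. With NACET it fell by 1.62 in control cells (SE 0.19, adjusted p = 0.0104) and had a log2 fold change of -1.30 in NRF2 ΔC cells (adjusted p = 0.0728). With H2O2 it had a log2 fold change of -0.46 in control cells (adjusted p = 0.112) and fell by 0.94 in NRF2 ΔC cells (SE 0.24, adjusted p = 0.0368). Of all genes, 1.76 % fell with NACET in control cells and 6.11 % with H2O2 in NRF2 ΔC cells. With NACET in control cells PPARGC1B rose by 1.18, PPRC1 by 0.58 and GABPB1 by 0.52, where 1.91 % of all genes rose. In NRF2 ΔC cells 2 of 16 rose with H2O2 (TFB2M and LRPPRC), where 4.96 % of all genes did, and 1 with NACET (GABPB1, by 0.76), where 0.48 % did. Between untreated lines 0 of the 16 were called, and with H2O2 PPARGC1A was lower in NRF2 ΔC cells (log2 fold change -1.12, SE 0.24, adjusted p = 0.0273). These fits called 4.07 % of all genes in untreated cells and 6.23 % with H2O2, in either direction.

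Of 37 assembly factors, 5 rose and 0 fell with H2O2 in each cell line without the block, and 1 rose with NACET in control cells, to be read against the same 7.06, 4.96 and 1.91 % of all genes that rose. Of 78 mitochondrial ribosomal proteins tested 8 rose in control and 4 in NRF2 ΔC cells with H2O2, against the same 7.06 and 4.96 %, and 0 fell. Of 82 cytosolic ribosomal proteins 1 rose with H2O2 in each line without the block. With it 14 rose in control cells, where 24.1 % of all genes did, and 75 in NRF2 ΔC cells, where 21.9 % did. Of 13 citric acid cycle enzymes 1 rose and 1 fell with H2O2 in control cells, where 7.06 and 6.16 % of all genes did, and 0 were called in the other treatment comparisons against untreated cells. Of the 8 other subunits and carriers found in the files, 1 rose with H2O2 in control cells, where 7.06 % of all genes did. In the other treatment comparisons against untreated cells 0 of the 8 were called without the block. Mitochondrially encoded subunits were not analysed here.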

How the data were processed

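The authors mapped single-end reads to hg19 and counted them per gene with HTSeq, strand ignored. The submitters' processing notes name FastQC, TopHat2 2.1.0, Bowtie and HTSeq 0.11.2, and the annotation is not given in the sources used here. The deposited values are whole-number counts per gene symbol. Reads with several alignments (8.24 to 10.4 % of a library) and ambiguous reads (0.955 to 1.18 %) were not assigned to genes by the authors, so members with near-identical copies or overlapping genes are uncertain. Exons of 34 of the 86 members overlap another protein-coding gene in GENCODE. The summary lines of the files, with reads on no gene at 15.0 to 17.5 %, stayed out of library sizes and tests.

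Counts were normalized with TMM and filtered with filterByExpr, and 9 pairs of groups (6 samples each) and 2 interactions (12 samples) were tested across all genes with the quasi-likelihood test of edgeR 4.0.16 in R 4.3.3, adjusting p-values after Benjamini and Hochberg. A member was called at an adjusted p under 0.05. DESeq2 1.42.0 was an alternative, with other normalizations and filters, 1 fit of all 18 samples, the sample number as a block and each sample left out. The code was tested on simulated data. Replicate libraries differed by more than counting error (chi-square per degree of freedom of at least 10.4). Named genes were, per comparison, up to 3 called members that rose most and up to 3 that fell most, the catalytic core subunits, isoform sets, members called in an interaction and, with no call, the extremes of each complex. Where the text gives other members or other genes, they were chosen after their values were seen. The members and lists were chosen with earlier results of these data known. Sequences and motif counts come from RefSeq promoter windows for 67 members. Transcript lengths are those of canonical GENCODE transcripts. Values of 1 member that is counted with the others are not reported here.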

Additional observations from a re-analysis of the deposited data

Results flagged for a closer look

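In the H2O2 interaction test with the sample number as a block within each cell line, 2 of 77 members were called. This block was added after seeing the data, and the same fit called 6.91 % of all genes. The 2 members were COX5B and NDUFA13, with log2 differences (NRF2 ΔC minus control) of 0.36 and 0.39. Without that block their differences were 0.37 and 0.40 and did not pass the test. For 10 members every same-numbered pair fell with H2O2 in control cells and rose in NRF2 ΔC cells. This difference in direction was not tested beyond the interaction fits, and the share of all genes with it is not given. The fitted differences without a block were 0.17 for ATP5G2, 0.28 for COX4I1, 0.37 for COX5B, 0.30 for COX6B1, 0.26 for COX8A, 0.40 for NDUFA13, 0.32 for NDUFA7, 0.30 for NDUFB11, 0.15 for SDHA and 0.24 for UQCRC1. With NACET the same held for 1 member, SDHB (0.10), and was not tested otherwise. Several of these pairs moved by little, such as SDHA in the pair numbered 1 of NRF2 ΔC cells (0.00 on the log2 scale). Other genes with transcripts of up to 1000 bases leaned the same way with H2O2. Their median difference was 0.20 without a block, and 75.6 % of them were above 0. No group had the 4 samples needed to look for a sample far from the others.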

How the results depend on the processing

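The number of members called without the block was the same under most alternatives. With the block it was 18 instead of 0 for H2O2 in control cells, 18 instead of 1 for H2O2 in NRF2 ΔC cells, 7 and 5 instead of 0 for NACET in control and NRF2 ΔC cells, and 14 and 27 instead of 0 for H2O2 against NACET in control and NRF2 ΔC cells. Between the lines, where numbers did not pair the samples, the block gave 0 for untreated cells, 6 for H2O2 and 3 for NACET, where it called 23.4 and 16.9 % of all genes with H2O2 and NACET. In untreated cells it called 356 of 13710 genes tested as higher and 856 as lower in NRF2 ΔC cells. The block within each line, added after seeing the data, gave 2 for the interaction of H2O2 and cell line and 0 for that of NACET. For H2O2 it called 6.91 % of all genes. For NACET it called 19 of 14002 genes with a higher and 107 with a lower effect in NRF2 ΔC cells. With both samples of 1 number left out, also added after seeing the data, the blocked counts were 16, 7 and 9 (without numbers 1, 2 and 3) for H2O2 in control cells and ranged from 8 to 16 for H2O2 in NRF2 ΔC cells, from 3 to 6 and from 3 to 19 for NACET, and from 2 to 23 and from 13 to 28 for H2O2 against NACET. These blocked fits called 20.6 to 50.5 % of all genes. DESeq2 gave 1 for H2O2 in control cells, 2 for H2O2 in NRF2 ΔC cells and 1 between the lines with H2O2. For H2O2 in NRF2 ΔC cells upper-quartile normalization gave 0, 1 fit of all samples 3 and a fold limit of 0.6 gave 0. For H2O2 against NACET in NRF2 ΔC cells 1 fit of all samples gave 3. Without 1 sample each, the unblocked counts ranged from 0 to 1 for H2O2 in control cells, from 0 to 5 for H2O2 in NRF2 ΔC cells, from 0 to 19 between the lines with H2O2 and from 0 to 1 for H2O2 against NACET in NRF2 ΔC cells. Between the lines with H2O2 these fits called 2.91 to 30.9 % of all genes. The shares of all genes are not given for the other fits without 1 sample. Nor are they given for DESeq2, upper-quartile normalization, the fit of all samples or the fold limit. These counts are therefore not read as results about the members. The causes of the differences between fits were not tested. The log2 difference of SDHD between H2O2 and NACET in NRF2 ΔC cells was 0.21, and without 1 sample it ranged from -0.014 (without the H2O2 sample numbered 2) to 0.48 (without the NACET sample numbered 2). With 3 samples a group, changes of the size seen here could mostly not be told from the spread without the block.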
